A study of Mus musculus with 15 samples.

Results

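Accessible chromatin around Gata3, Maf and Nfil3 was described in mouse CD4+ T cells. The regions were those whose nearest protein-coding gene, at most 100 kb away, was one of these 3 genes in the mm10 build. Of 83743 accessible regions with a peak in at least 2 libraries, 36 met this rule: 16 belonged to Gata3, 11 to Maf and 9 to Nfil3. A further 9 regions near these genes had a peak in a single library and were not counted. Presence of a peak was read in each library, and where there was a peak its height was the highest fragment pileup, divided by the number of fragments that the library kept after filtering, in M (M is 1000000).

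The libraries were made by ATAC-seq, in which the Tn5 transposase cuts and tags open DNA. The 4 groups were these: IRF5-/- cells activated for 72 h (4 libraries), IRF5+/+ cells activated for 72 h (4 libraries), untreated IRF5-/- cells (3 libraries, numbered 1, 3 and 4) and untreated IRF5+/+ cells (4 libraries). IRF5 is an interferon regulatory factor. The deleted part of Irf5, the strain and age of the mice and the activating agent are not given in the sources used here. Untreated cells are written as 0 h, and because no untreated culture was kept for 72 h, activation and time in culture cannot be told apart. The labels call the libraries biological replicates but do not say that they came from separate animals or cultures, so each p-value reflects the spread among the libraries at hand, which may be technical.

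GATA3 is a zinc finger transcription factor needed for T cell development and for the T helper 2 (Th2) programme, in which CD4+ T cells make interleukin-4, interleukin-5 and interleukin-13. MAF (c-Maf) is a basic leucine zipper factor that activates Il4 and, in several T cell states, Il10. NFIL3 (E4BP4) is a basic leucine zipper repressor that shapes cytokine production in helper T cells and is needed for innate lymphoid cells.

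The source of promoter sequences held no sequence for Maf. The 250 bases upstream of the start site of Gata3 and Nfil3 are shown, and the peak over each start site was the tallest of its gene. Both come from RefSeq on GRCm38.p6, the assembly behind mm10, and are written 5′ to 3′ on the minus strand, from which both genes are read. The Gata3 window is chr2:9878601-9878850 and the Nfil3 window is chr13:52981040-52981289. Each window gives 1 start site, which is the one meant below. The upper bound of each gene lies further upstream, at 9887953 for Gata3 and 52982878 for Nfil3, and any other start site was not read. Capitals mark the GC box GGGCGG, or its reverse complement CCGCCC, a motif chosen after the windows had been seen.
Gata3: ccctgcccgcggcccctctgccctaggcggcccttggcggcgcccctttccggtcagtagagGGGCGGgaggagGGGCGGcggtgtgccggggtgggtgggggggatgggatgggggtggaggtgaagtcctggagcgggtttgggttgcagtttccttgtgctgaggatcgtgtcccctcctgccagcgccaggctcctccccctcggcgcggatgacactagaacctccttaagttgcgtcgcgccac
Nfil3: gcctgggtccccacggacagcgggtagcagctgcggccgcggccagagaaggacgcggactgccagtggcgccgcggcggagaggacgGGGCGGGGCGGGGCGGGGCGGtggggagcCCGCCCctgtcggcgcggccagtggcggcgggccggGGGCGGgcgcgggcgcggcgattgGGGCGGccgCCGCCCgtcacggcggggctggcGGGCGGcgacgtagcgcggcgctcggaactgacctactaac
The Gata3 window held 19 CpG dinucleotides, 70% G and C, and 2 GC boxes. The Nfil3 window held 43 CpG, 81.6% G and C, and 9 GC boxes, of which some overlap each other. Over all 21262 promoter windows of the same length the medians were 10 CpG and 55.6% G and C, and 42.6% of windows held at least 1 GC box. The other motifs searched, on both strands, were that of GATA factors, AGATAA (in 8.81% of all windows), AP-1, TGANTCA (6.13%), the NFIL3 and D-box, TTANNTAA (4.96%), the core of the interferon-stimulated response element (2.96%) and NFAT, GGAAAA (19.8%). None of these 5 motifs occurred in either window, which says only that their letters are not in these 250 bases.

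Depth was 20.5 to 29.0 M fragments per library after filtering. The lowest pileup called as a peak lay between 0.318 and 0.402 fragments per M, and weaker signal than this was not called; absence of a peak therefore does not show closed DNA. Libraries at 72 h held 55519 to 69086 peaks, and libraries at 0 h 29994 to 47790. Over the 21176 regions with a peak in all 15 libraries, the median height was 2.14 to 2.90 fragments per M at 72 h and 1.80 to 5.07 at 0 h. The lowest value was that of IRF5-/- replicate 3 at 0 h, which also had the fewest peaks (29994) and a median height of 1.80, against 3.85 or more in the other 0 h libraries. At each of the 8 regions near Gata3, Maf and Nfil3 with a peak in every library, it was the lowest library at 0 h. Because libraries differed in this way, heights were also given relative to each library's median, as log2 height minus the library's median log2 height over those 21176 regions. In bulk libraries a change in the number of cells of a type and a change in accessibility per cell cannot be told apart. Of the 8 CD4 T cell markers, 7 had a peak within 1 kb in all 15 libraries, and Thy1 in 12.

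**Figure D1:**
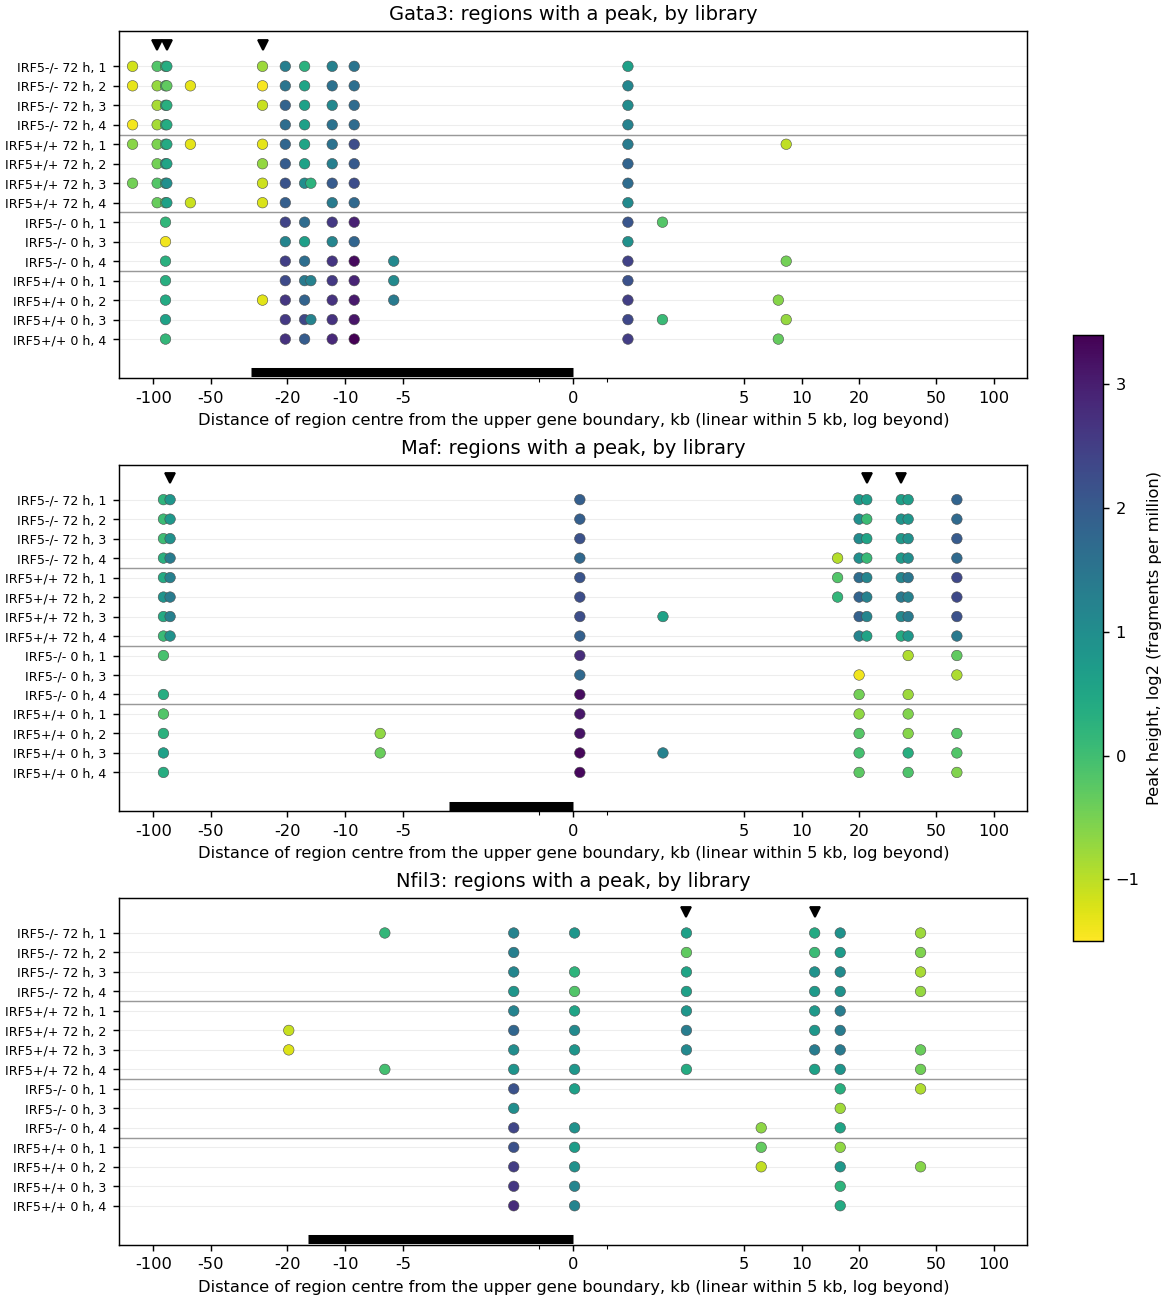
Peaks around Gata3, Maf and Nfil3 in the 15 libraries. Each point is a region with a peak in that library, placed by the distance of its centre from the upper gene boundary (kb, linear within 5 kb and logarithmic beyond) and coloured by log2 height in fragments per M; the black bar is the gene and triangles mark the 8 regions gained at 72 h. The 7 columns of points that fill all 8 rows at 72 h and none of the 7 rows at 0 h are regions of Gata3, Maf and Nfil3 that separated the times.

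Cells at 72 h were first set against cells at 0 h, to see what activation did around the 3 regulators. At 72 h, 8 of the 36 regions were gained and 0 were lost by a two-sided exact conditional test with genotype as stratum (Benjamini-Hochberg over all 83743 regions). Among all tested regions 18.4% were gained and 4.65% were lost, so the 22.2% gained here lay near the background. Gata3 had 3 gained regions of 16, Maf 3 of 11 and Nfil3 2 of 9. Of the 8, 7 had a peak in all 8 libraries at 72 h and in none of the 7 at 0 h, a pattern shown by 8.86% of all regions; the opposite pattern was shown by 0 of the 36 and 1.37% of all. For those 7 the exact p was 0.000408, the smallest this design can give, and the adjusted p was 0.00399. All 7 were in the authors' final lists of both genotypes at 72 h and in neither list at 0 h. Those lists were made from the same libraries merged by group, so they are no separate evidence.

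By distance, 1 of the 12 regions that overlapped a gene or lay within 1 kb of it was gained. Of the 8 regions 1 to 10 kb away, 1 was gained, and of the 16 regions 10 to 100 kb away, 6. Over all tested regions the shares gained in the same classes were 16.6%, 17.7% and 21.8%. A peak in all 15 libraries was found at 6 regions in or within 1 kb of a gene, 0 at 1 to 10 kb and 2 beyond. Over all tested regions the shares with such a peak in the same classes were 30.4%, 17.9% and 17.0%. In all, 8 of the 36 regions had a peak in every library, beside 25.3% of all tested regions.

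At Gata3 (chr2:9857078-9887953, mm10) the tallest region was chr2:9878052-9879929, inside the gene bounds, which holds the start site at 9878600. Its heights at 72 h were 2.85, 3.11, 3.24 and 3.27 fragments per M in IRF5-/- cells and 4.78, 4.10, 4.79 and 3.34 in IRF5+/+ cells. At 0 h they were 7.70, 3.52 and 9.6 in IRF5-/- cells and 7.54, 8.34, 8.74 and 10.6 in IRF5+/+ cells. In all, 6 of the 7 libraries at 0 h stood above every library at 72 h, and the exception was IRF5-/- replicate 3. The height per M at 72 h was 0.485 of that at 0 h, a log2 difference of -1.04 (SE 0.19, limma adjusted p = 2.9e-07).

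Most regions moved this way on the per-M scale: 65.4% of the 21176 fitted regions were lower and 8.89% higher at 72 h, with a median log2 difference of -0.66 over all of them. Relative to the library median, 39.1% were lower and 34.4% higher, and the Gata3 start-site region was still lower by a log2 difference of -0.42 (95% interval -0.56 to -0.28, limma adjusted p = 4.9e-07). This difference was lower than that of most fitted regions, at the 22.0 percentile. In fold enrichment, the authors' ratio of the pileup to its local background, the same region had a log2 difference of -0.04 (limma adjusted p = 0.751), with 4.77 to 6.94 at 72 h and 4.52 to 6.51 at 0 h. The groups thus overlapped throughout on that scale.

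A further 3 Gata3 regions in or beside the gene were open in all 15 libraries. The region chr2:9867009-9867917, inside the gene, had heights of 2.49 to 4.44 fragments per M at 72 h and 2.26 to 6.53 at 0 h. The region chr2:9875792-9876774, also inside the gene, had 2.18 to 4.02 at 72 h and 2.26 to 7.16 at 0 h, and the region chr2:9888902-9890203, 949 bp above the gene in coordinates, had 1.56 to 3.59 at 72 h and 1.91 to 5.74 at 0 h. In each of the 3 the lowest value at 0 h was that of IRF5-/- replicate 3, and the other 6 libraries at 0 h lay above all libraries at 72 h. Per M their log2 differences were -0.51, -0.95 and -0.85 (limma adjusted p = 0.0137, 4.7e-06 and 5.0e-05). Relative to the library median they were 0.11 (adjusted p = 0.203), -0.33 (adjusted p = 0.0013) and -0.23 (adjusted p = 0.0227) in limma, so the first of these passed only on the per-M scale. Its per-M call ended without IRF5-/- replicate 1 or 4 at 0 h (limma adjusted p up to 0.0681). The call of the third relative to the median ended without IRF5-/- replicate 1 or IRF5+/+ replicate 4 at 72 h, or without IRF5-/- replicate 4 or IRF5+/+ replicate 2 at 0 h (limma adjusted p up to 0.0682). In fold enrichment none of the 3 passed (log2 differences -0.16, -0.02 and 0.04, the last with its sign turned, limma adjusted p = 0.114 or more).

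The other Gata3 regions inside the gene were shorter or weaker. The region chr2:9871186-9872210 had a peak in every library except IRF5+/+ replicate 4 at 72 h, with heights of 1.2 to 2.03 at 72 h and 1.57 to 5.14 at 0 h. Its log2 difference relative to the library median was -0.41 (SE 0.11, limma adjusted p = 0.00104, 14 libraries). The region chr2:9872719-9873029 had a peak in 1 of 8 libraries at 72 h and 2 of 7 at 0 h. The region chr2:9881918-9882831 had a peak in 0 of 8 libraries at 72 h and 3 of 7 at 0 h (exact p = 0.0918), with heights of 2.1 to 2.66 fragments per M where present. Neither of the last 2 passed the presence test.

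The gained Gata3 regions were low. The region chr2:9802613-9803450, 53.6 kb below the gene in coordinates, had heights of 1.29, 0.807, 1.24 and 1.31 fragments per M in IRF5-/- cells and 1.34, 1.45, 1.95 and 1.52 in IRF5+/+ cells at 72 h, and no peak at 0 h. The region chr2:9792259-9792854, 64.2 kb below, had 0.890, 0.606, 0.555 and 0.561 in IRF5-/- cells and 0.689, 0.726, 0.881 and 0.778 in IRF5+/+ cells at 72 h, again with no peak at 0 h. Both were present in every activated library of both genotypes. The third, chr2:9860782-9861246 inside the gene, had peaks of 0.363 to 0.617 in 7 of 8 libraries at 72 h and 1 peak, of 0.414, in 7 libraries at 0 h (exact p = 0.0102, adjusted p = 0.0443). It lay near the lowest callable pileup, and leaving out 1 library ended its call in 13 of 15 cases. With only the strongest 29994 peaks of every library, the number in the smallest list, Gata3 had 1 gained region, the one 53.6 kb below, and 1 lost region, chr2:9871186-9872210 inside the gene (0 of 8 libraries at 72 h and 6 of 7 at 0 h, exact test adjusted p = 0.00941). Of all 44887 regions in that setting, 14.8% were gained and 14.1% lost.

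Next to the gained region at 53.6 kb lay chr2:9801353-9801982, 55.1 kb below Gata3, with a peak in all 15 libraries. Its heights were 0.817 to 1.63 fragments per M at 72 h and 0.383 to 1.5 at 0 h, the lowest again in IRF5-/- replicate 3. Per M it did not pass (log2 difference 0.15, SE 0.20, limma adjusted p = 0.492). Relative to the library median it was higher at 72 h by 0.77 (SE 0.14, limma adjusted p = 2.7e-06), at the 86.3 percentile of fitted regions. In fold enrichment the sign turned (log2 difference -0.23, limma adjusted p = 0.237). Without IRF5-/- replicate 3 at 0 h, the per-M difference was -0.12 (limma adjusted p = 0.487). The remaining Gata3 regions, 2 below and 3 above the gene, each had a peak in 2 to 5 libraries, with heights of 0.374 to 1.05 fragments per M, and none passed.

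**Figure D2:**
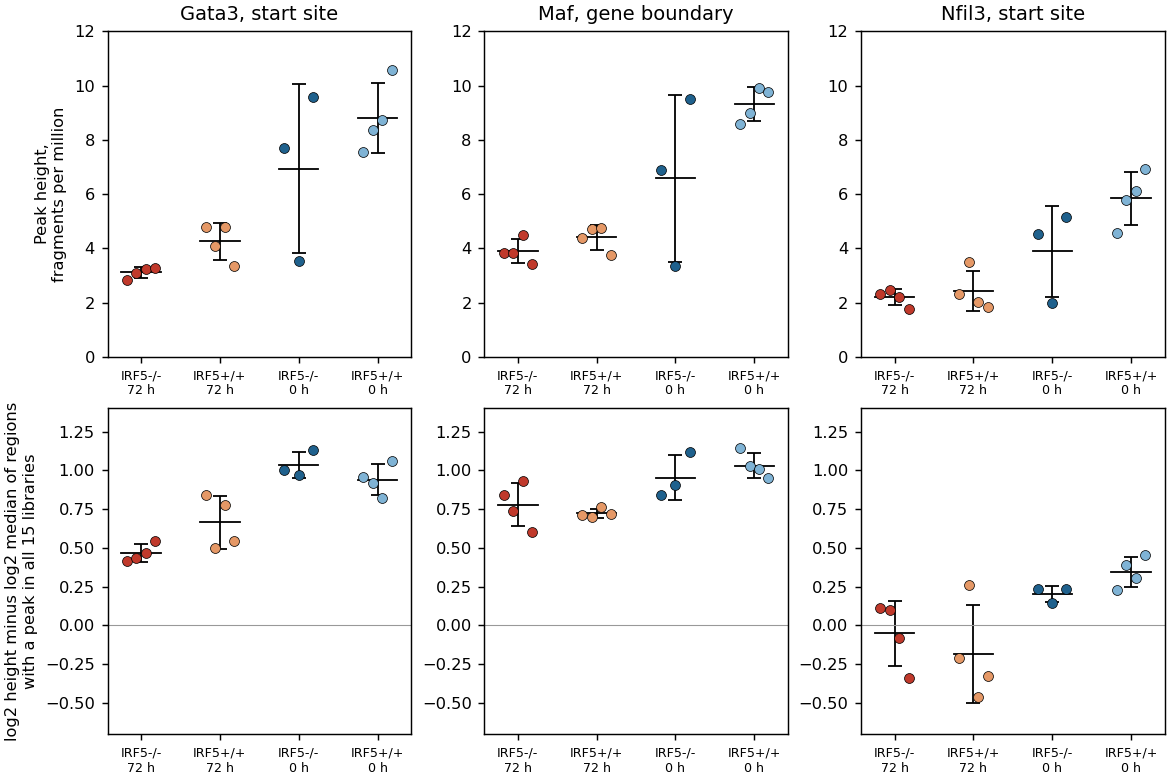
Heights of the tallest region of each gene in every library. Top row, height in fragments per M; bottom row, log2 height minus the log2 median of regions with a peak in all 15 libraries; points are libraries, and bars are the mean and SD of each group. At 0 h the point far below its group in the top row is IRF5-/- replicate 3 (3.52, 3.37 and 1.99 fragments per M), and in the bottom row it lies with the others.

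Maf (chr8:115703253-115706894) had its tallest region, chr8:115705688-115708479, across the gene boundary. Its heights at 72 h were 3.83, 3.83, 4.48 and 3.41 fragments per M in IRF5-/- cells and 4.38, 4.72, 4.75 and 3.77 in IRF5+/+ cells. At 0 h they were 6.88, 3.37 and 9.50 in IRF5-/- cells and 8.57, 9.0, 9.91 and 9.78 in IRF5+/+ cells. As at Gata3, 6 of the 7 libraries at 0 h stood above all libraries at 72 h, and IRF5-/- replicate 3 stood below them. The log2 difference was -0.86 per M (SE 0.19, limma adjusted p = 2.1e-05), -0.24 relative to the library median (SE 0.07, limma adjusted p = 0.00127) and -0.41 in fold enrichment (limma adjusted p = 0.00027). It was thus lower at 72 h on all 3 scales.

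The region of Maf with the highest fitted difference lay far from the gene. The region chr8:115770842-115771749, 63.9 kb above the gene, had 3.56, 3.31, 4.01 and 3.32 fragments per M in IRF5-/- cells and 5.03, 5.01, 4.56 and 2.68 in IRF5+/+ cells at 72 h. At 0 h it had 0.812 and 0.536 in IRF5-/- cells, with no peak in replicate 4, and 0.862, 0.890 and 0.673 in IRF5+/+ cells, with no peak in replicate 1. The lowest library at 72 h was higher than the highest at 0 h, so the times did not overlap. Over the 13 libraries with a peak, height relative to the library median was higher at 72 h by a log2 difference of 2.94 (SE 0.13, 95% interval 2.69 to 3.20, limma adjusted p = 1.5e-25), at the 99.6 percentile of 30003 regions with a peak in at least 2 libraries of each group. Per M the difference was 2.40, or 5.29-fold (limma adjusted p = 5.2e-27). Fold enrichment was 11.9 to 17.8 at 72 h and 4.72 to 7.08 at 0 h, so these ranges did not overlap either.

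Another 2 Maf regions behaved alike. The region chr8:115726262-115727370, 19.4 kb above the gene, had 1.69, 1.94, 2.09 and 1.96 fragments per M in IRF5-/- cells and 3.16, 3.59, 3.71 and 2.29 in IRF5+/+ cells at 72 h. At 0 h it had no peak, 0.383 and 0.731 in IRF5-/- cells and 0.62, 0.862, 0.971 and 0.831 in IRF5+/+ cells. Every library at 72 h lay above every library at 0 h. The region chr8:115742366-115743196, 35.5 kb above, had heights of 1.6 to 2.80 at 72 h and 0.530 to 1.25 at 0 h, where it had no peak in IRF5-/- replicate 3, and here too the times did not overlap. The log2 differences relative to the library median were 2.45 (SE 0.13) and 2.42 (SE 0.14), at the 98.6 and 98.5 percentiles, with limma adjusted p = 1.7e-22 and 6.9e-21 over 14 libraries each. Their fold enrichments were 7.43 to 10.4 at 72 h and 3.46 to 7.70 at 0 h for the first, and 6.82 to 9.55 at 72 h and 4.27 to 9.85 at 0 h for the second, which overlapped.

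The gained Maf regions above the gene lay between the last 2. The region chr8:115728456-115729013, 21.6 kb above the gene, had heights of 1.6, 1.05, 1.45 and 1.08 in IRF5-/- cells and 2.23, 2.36, 2.22 and 1.48 in IRF5+/+ cells at 72 h, and no peak at 0 h. The region chr8:115739601-115740263, 32.7 kb above, had 1.56, 1.82, 1.71 and 1.68 in IRF5-/- cells and 2.23, 2.69, 2.14 and 1.32 in IRF5+/+ cells at 72 h, and no peak at 0 h. In both, replicate 4 was the lowest of the IRF5+/+ libraries. On the other side of the gene, chr8:115624768-115625680, 77.6 kb below, had 1.78, 1.74, 1.92 and 2.57 in IRF5-/- cells and 2.43, 2.61, 2.45 and 1.91 in IRF5+/+ cells at 72 h, and no peak at 0 h. It was the tallest of the 8 gained regions by mean height (2.18 fragments per M).

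Counted by the number of regions with a peak, 8 or 9 of the 11 Maf regions were open in each IRF5-/- library and 8 or 9 in each IRF5+/+ library at 72 h. At 0 h the numbers were 3 or 4 in IRF5-/- libraries and 4 to 7 in IRF5+/+ libraries. The mean shares of the Maf regions were 75% in IRF5-/- and 79.5% in IRF5+/+ libraries at 72 h, and 33.3% in IRF5-/- and 50% in IRF5+/+ libraries at 0 h. Over all tested regions they were 64.8% in IRF5-/- and 71.9% in IRF5+/+ libraries at 72 h, and 43.8% in IRF5-/- and 51.8% in IRF5+/+ libraries at 0 h. With the strongest 29994 peaks of every library, 19 regions were assigned to the 3 genes. Of these 19, 8 were called gained, beside 14.8% of all 44887 regions in that setting. Maf had 6 of the 8: its 3 regions gained in the main test and the regions 19.4, 35.5 and 63.9 kb above the gene. The region chr8:115618077-115618852, 84.4 kb below Maf, had a peak in 8 of 8 libraries at 72 h and 6 of 7 at 0 h, with heights of 1.02 to 1.81 at 72 h and 0.892 to 1.54 at 0 h. It was higher relative to the library median by 0.91 (SE 0.14, limma adjusted p = 1.1e-07) and did not pass per M (log2 difference 0.09, limma adjusted p = 0.676). The other 3 Maf regions, at 2.47, 2.77 and 15.2 kb, had a peak in 2 or 3 libraries each and none passed.

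**Figure D3:**
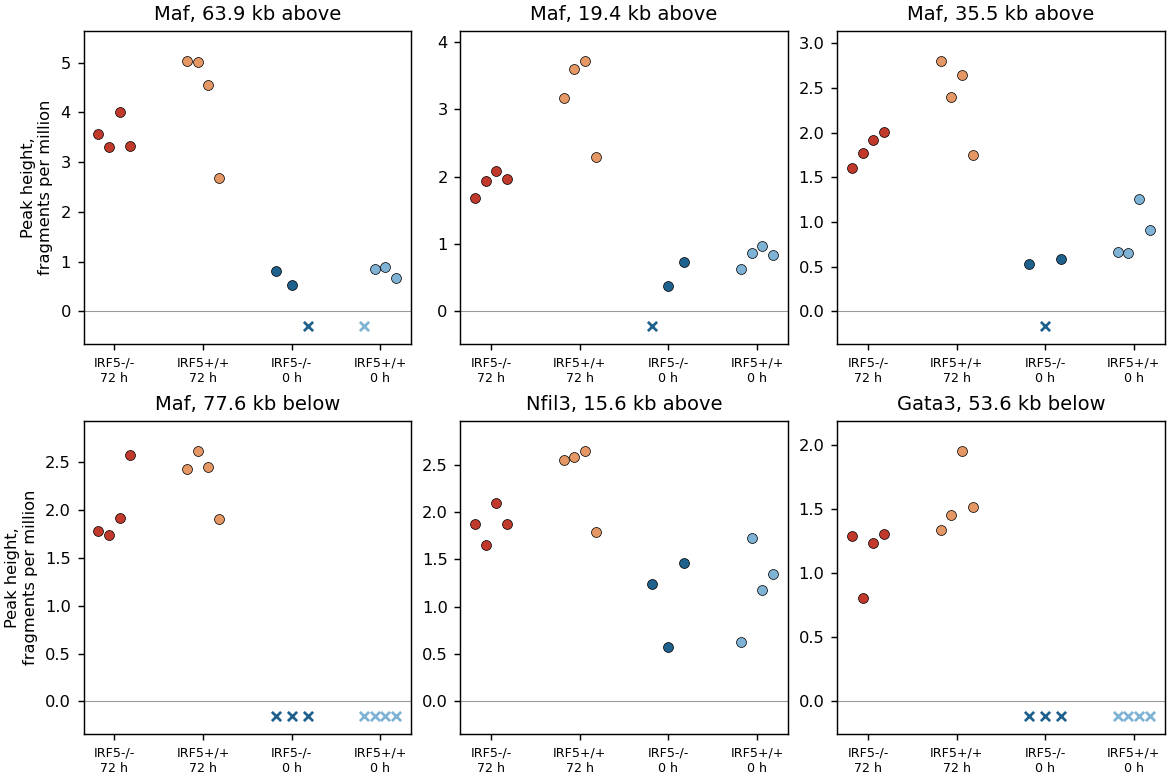
Heights of 6 distal regions in every library, in fragments per M; crosses below the line mark libraries with no peak, and panel titles give the distance from the gene. At the 3 Maf regions of the top row every library at 72 h lies above every library at 0 h, and the Maf region at 77.6 kb and the Gata3 region at 53.6 kb have no peak at 0 h.

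Nfil3 (chr13:52967209-52982878) had its tallest region, chr13:52980261-52981997, inside the gene over the start site at 52981039. Its heights at 72 h were 2.31, 2.46, 2.22 and 1.78 fragments per M in IRF5-/- cells and 2.31, 3.48, 2.03 and 1.83 in IRF5+/+ cells. At 0 h they were 4.52, 1.99 and 5.16 in IRF5-/- cells and 4.55, 5.79, 6.11 and 6.93 in IRF5+/+ cells. Again 6 of the 7 libraries at 0 h lay above every library at 72 h, and IRF5-/- replicate 3 lay among the values at 72 h. The log2 difference was -1.01 per M (SE 0.20, limma adjusted p = 1.3e-06), -0.39 relative to the library median (SE 0.09, limma adjusted p = 0.00025) and -0.68 in fold enrichment (limma adjusted p = 4.2e-05). Like the Maf boundary region, it was lower at 72 h on all 3 scales.

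Of the 5 Nfil3 regions above the gene, 2 were gained at 72 h. The region chr13:52985815-52986570, 2.94 kb above, had 1.56, 0.807, 1.45 and 1.54 fragments per M in IRF5-/- cells and 1.78, 2.54, 2.14 and 1.32 in IRF5+/+ cells at 72 h, and no peak at 0 h. The region chr13:52994258-52994870, 11.4 kb above, had 1.33, 1.05, 1.84 and 1.68 in IRF5-/- cells and 1.70, 1.74, 2.57 and 1.52 in IRF5+/+ cells at 72 h, and no peak at 0 h. Both were gained, although with the same number of peaks in every library the first of them had a peak in 4 of 8 libraries at 72 h and was not called (adjusted p = 0.226).

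The region chr13:52998493-52999028, 15.6 kb above Nfil3, had a peak in all 15 libraries. Its heights were 1.87, 1.66, 2.09 and 1.87 in IRF5-/- cells and 2.55, 2.58, 2.64 and 1.79 in IRF5+/+ cells at 72 h. At 0 h they were 1.24, 0.574 and 1.46 in IRF5-/- cells and 0.62, 1.72, 1.17 and 1.35 in IRF5+/+ cells. Of the libraries at 0 h only IRF5+/+ replicate 2 (1.72) lay above the lowest library at 72 h (1.66). The region was 1.95-fold higher per M at 72 h (log2 difference 0.97, SE 0.20, limma adjusted p = 5.8e-06) and 3.0-fold higher relative to the library median (log2 difference 1.59, SE 0.13, limma adjusted p = 5.2e-15), at the 96.8 percentile. In fold enrichment it did not pass (log2 difference 0.30, limma adjusted p = 0.107), with 6.75 to 9.95 at 72 h and 4.21 to 8.67 at 0 h.

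Of the other Nfil3 regions, chr13:52982764-52983063 across the gene boundary had a peak in 7 of 8 libraries at 72 h and 6 of 7 at 0 h, with heights of 0.889 to 2.1 and 1.55 to 2.30. Relative to the library median it was higher at 72 h by 0.49 (SE 0.14, limma adjusted p = 0.00244, 13 libraries), and per M its difference of -0.34 did not pass (limma adjusted p = 0.144). The region chr13:52976374-52976970, inside the gene, had a peak in 2 of 8 libraries at 72 h and 0 of 7 at 0 h. The region 41.5 kb above had a peak in 6 of 8 libraries at 72 h and 2 of 7 at 0 h (exact p = 0.133). The regions 3.82 kb below and 5.92 kb above had peaks in 2 and 3 libraries.

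Across the 3 genes, 8 regions had a height in all 15 libraries: per M 1 was higher, 6 were lower and 1 did not pass, and relative to the library median 2 were higher, 5 lower and 1 did not pass. Their median log2 difference was -0.86 per M and -0.23 relative to the library median, beside -0.66 and -0.04 over all 21176 fitted regions. Among the 14 regions with a peak in at least 2 libraries of each group, 7 were higher and 6 lower relative to the library median, where 42.4% of 30003 regions were higher and 32.3% lower. Per M, 4 of the 14 were higher and 7 lower, against 13.2% higher and 57.9% lower in all. The 7 that were higher relative to the library median were 6 distal regions and the Nfil3 boundary region, and the 6 that were lower lay in or within 1 kb of a gene. Libraries without a peak in a region were left out of these fits, so the fitted differences do not include them.

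**Figure D4:**
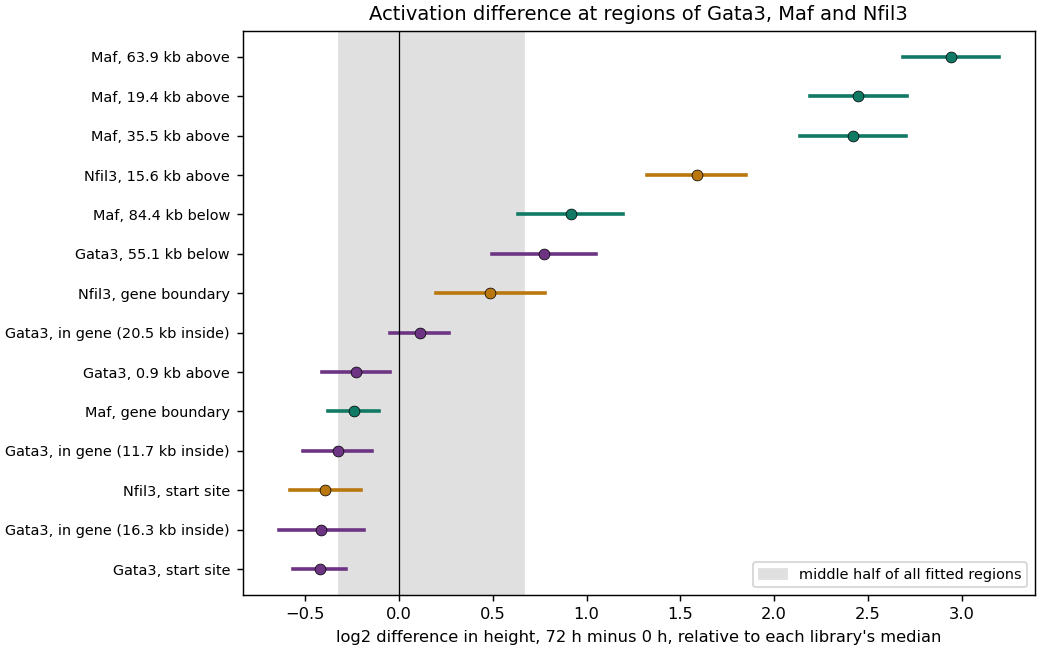
Activation difference at the 14 regions with a peak in at least 2 libraries of each group. Points are log2 differences in height, 72 h minus 0 h, relative to each library's median, with 95% intervals from limma, and the grey band holds the middle of all 30003 fitted regions between their quartiles. The 3 Maf regions above the gene reach 2.42 to 2.94, and the regions at the Gata3 and Nfil3 start sites lie at -0.42 and -0.39.

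The comparison of IRF5-/- with IRF5+/+ cells asked whether the 3 loci differed without IRF5. By presence, 0 of the 36 regions were called, as 0% of all regions were at an adjusted p under 0.05 and 1.39% at an unadjusted p under 0.05. The lowest unadjusted exact p among the 36 was 0.214, at chr2:9872719-9873029 and chr13:52982764-52983063, so 0 passed 0.05 unadjusted; an unstratified Fisher's exact test also called 0. By height, 0 of the 8 regions present in all libraries passed in limma per M, where 0.151% of all regions were lower and 0.00472% higher, and 5 of the 8 had an unadjusted p under 0.05, beside 44.2% of all regions. Without IRF5-/- replicate 4 at 0 h 7 of the 8 were lower in IRF5-/- cells per M, as 79.1% of all fitted regions then were. Without replicate 1 at 0 h 2 were lower, as 24.6% of all regions were. In either case 0 of the 8 passed relative to the library median.

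Those per-M differences, IRF5-/- minus IRF5+/+, ran from -0.51 to -0.26 on the log2 scale beside a median of -0.37 over all 21176 regions. The lowest adjusted p was 0.0804, at chr2:9888902-9890203 beside Gata3 (log2 difference -0.51, 95% interval -0.91 to -0.12). Relative to the library median the 8 differences ran from -0.12 to 0.13 and 0 passed (lowest limma adjusted p = 0.60), where 0.085% of all regions were lower and 0.973% higher. For the Gata3 start-site region the difference was -0.05 (95% interval -0.19 to 0.09), for the Maf boundary region -0.01 (-0.15 to 0.12) and for the Nfil3 start-site region 0.00 (-0.19 to 0.19). A miss of the threshold does not show that the genotypes were alike. These last intervals cover only these regions and only differences relative to the library median, not differences per M.

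Among the 14 regions with a peak in at least 2 libraries of each group, 1 was lower in IRF5-/- cells per M, the Maf region 19.4 kb above the gene (log2 difference -0.67, SE 0.20, limma adjusted p = 0.0432). In all, 3.64% of 30003 regions were lower and 0.01% higher in that fit. Relative to the library median its difference was -0.20 (95% interval -0.46 to 0.06, limma adjusted p = 0.577), and 0 of the 14 passed, beside 0.0533% lower and 0.647% higher in all. At 72 h this region had 1.69 to 2.09 fragments per M in IRF5-/- cells and 2.29 to 3.71 in IRF5+/+ cells, which did not overlap. Median heights over the regions with a peak in all 15 libraries were 2.14 to 2.35 in IRF5-/- and 2.29 to 2.90 in IRF5+/+ libraries at 72 h. The difference of the activation differences between genotypes passed at 0 of 8 regions per M (lowest limma adjusted p = 0.856) and 0 of 8 relative to the library median (lowest limma adjusted p = 0.542), and 0% and 0.00472% of all regions passed.

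Other genes of the Th2 programme were read from a list of 23 genes, all of which had regions, 134 in all. At 72 h 23 of the 134 regions were gained (17.2%, beside 18.4% of all regions) and 6 were lost (4.48%, beside 4.65%). The cytokine genes had 5 regions gained and 1 lost of 25. Il24, an interleukin-10 family cytokine made by Th2 cells, gained 2 of 2 regions, Il4 gained 1 of 2, Il13 gained 1 of 3, and Il10 gained 1 and lost 1 of 13, while Il5 and Areg (amphiregulin) had no call in 3 and 2 regions.

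The receptor genes had 7 regions gained and 2 lost of 34. Il4ra, the interleukin-4 receptor alpha chain, gained 4 of 14, Il1rl1, the interleukin-33 receptor, gained 2 of 8, and the chemokine receptor gene Ccr4 gained 1 of 4. Il17rb, a chain of the interleukin-25 receptor, lost its 1 region, Ccr8 lost 1 of 5, and Ptgdr2, the prostaglandin D2 receptor, had no call in 2. Signalling and transcription factor genes had 5 gained and 1 lost of 42: Notch1 gained 2 of 6, Stat6, the transducer of interleukin-4 signals, gained 1 of 4, Gfi1 gained 1 of 5, and Irf4 gained 1 and lost 1 of 10. Batf, Junb and Bhlhe41 had no call in 7, 4 and 6 regions. Genes that oppose the programme had 6 gained and 2 lost of 33: Sox4 gained 3 and lost 1 of 9, Bcl6 gained 1 and lost 1 of 12, and Tbx21 (T-bet) and Zfpm1 (FOG-1, which binds GATA factors) gained 1 of 6 each. The counts of the list lay near the background in both directions.

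Markers of CD4 T cells and of other cell types were read beside the activation results. Among B cell markers, Cd79a, Cd79b and Ms4a1 had no region, and 5 of the 13 Ebf1 regions were gained, beside 18.4% of all regions gained and 4.65% lost. The 18 regions of Pax5 and Ebf1 numbered 9 to 14 in IRF5-/- and 14 to 16 in IRF5+/+ libraries at 72 h, and 3 to 7 in IRF5-/- and 5 to 8 in IRF5+/+ libraries at 0 h. Their summed heights were 11 to 13.4 fragments per M in IRF5-/- and 15.9 to 21.8 in IRF5+/+ libraries at 72 h, and 2.60 to 8.12 in IRF5-/- and 6.74 to 8.78 in IRF5+/+ libraries at 0 h. Of 4 markers of type 2 innate lymphoid and mast cells, Fcer1a had no region. Of the 19 regions of the other 3, 1 was gained and 4 were lost (21.1%), and they summed to 6.50 to 9.01 in IRF5-/- and 6.69 to 11.3 in IRF5+/+ libraries at 72 h, and to 8.15 to 21.9 in IRF5-/- and 22.4 to 28.6 in IRF5+/+ libraries at 0 h. Myeloid markers, with 3 of 22 regions gained (13.6%) and 4 lost (18.2%), summed to 8.79 to 10.2 in IRF5-/- and 8.75 to 13.4 in IRF5+/+ libraries at 72 h, and to 4.51 to 16.4 in IRF5-/- and 11.3 to 22.2 in IRF5+/+ libraries at 0 h. CD8 and NK cell markers, with 4 of 39 regions gained (10.3%) and 3 lost (7.69%), summed to 24.1 to 30.0 in IRF5-/- and 28.3 to 34.9 in IRF5+/+ libraries at 72 h, and to 17.8 to 51.9 in IRF5-/- and 45.8 to 58.6 in IRF5+/+ libraries at 0 h. The markers of CD4 T cells themselves had 8 of 103 regions gained (7.77%) and 16 lost (15.5%). Their heights summed to 68.0 to 76.7 in IRF5-/- and 82.7 to 114.4 in IRF5+/+ libraries at 72 h, and to 88.7 to 212.1 in IRF5-/- and 208.3 to 270.6 in IRF5+/+ libraries at 0 h. The part of other cells in the changes at Gata3, Maf and Nfil3 was not tested.

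The patterns of the 3 genes were compared with those of 2689 genes with at least 8 regions and a peak in every library. Genes without a peak in some library were left out. The measure was the Pearson correlation over 15 libraries of the log2 share of a gene's regions with a peak over that of all regions. For Maf the highest were Ptprj (r = 0.92), Map4 (0.89) and Acot9 (0.88), for Gata3 Slc39a10 (0.78), Gm5148 (0.77) and Zfp516 (0.74), and for Nfil3 Vrk2 (0.79), Cited2 (0.77) and Pkig (0.76). These are descriptions over libraries that share depth and activation state. Gata3 regions with a peak averaged 9.75 ± 0.96 of 16 in IRF5-/- and 10.3 ± 1.5 in IRF5+/+ libraries at 72 h (SD, n = 4 each), and 7.0 ± 1.0 (SD, n = 3) in IRF5-/- and 8.25 ± 0.96 (SD, n = 4) in IRF5+/+ libraries at 0 h. Nfil3 had 6.0 ± 0.82 of 9 in IRF5-/- and 6.25 ± 0.96 in IRF5+/+ libraries at 72 h (SD, n = 4 each), and 3.33 ± 1.15 (SD, n = 3) in IRF5-/- and 3.75 ± 0.96 (SD, n = 4) in IRF5+/+ libraries at 0 h. As mean shares, Gata3 had 60.9% in IRF5-/- and 64.1% in IRF5+/+ libraries at 72 h, and 43.8% in IRF5-/- and 51.6% in IRF5+/+ libraries at 0 h; Nfil3 had 66.7% in IRF5-/- and 69.4% in IRF5+/+ libraries at 72 h, and 37.0% in IRF5-/- and 41.7% in IRF5+/+ libraries at 0 h. Over all tested regions the shares were likewise higher at 72 h, 64.8% in IRF5-/- and 71.9% in IRF5+/+ libraries, against 43.8% in IRF5-/- and 51.8% in IRF5+/+ libraries at 0 h.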

How the data were processed

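ATAC-seq peak lists of 15 libraries were used, with 1 merged and 1 final list for each of the 4 conditions. The submitters' processing notes name Trim Galore 0.5.0, Bowtie2 2.2.9 and HOMER 4.10.4, with mm10 as the build. Per the file headers, peaks were called with MACS2 2.1.1.20160309 at a q value of 0.05 and without a control, and IRF5+/+ replicate 4 at both times came from an alignment numbered 5. The deposited pileup signal is the fragment coverage at a peak's summit. The deposited fold enrichment is the ratio of the pileup to its local background. Per the file headers, MACS2 wrote the −log10 q values, which served only to filter or rank peaks within a list. The rule behind the final lists is not stated.

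Peaks were merged (overlap of at least 1 bp), regions of at least 2 libraries were assigned to the nearest of 21896 protein-coding genes of GRCm38.p6, and presence was tested by stratified exact conditional tests. Heights were scaled to fragments per M and fitted with limma 3.58.1 (R 4.3.3, trended eBayes, 4 groups) on log2 values; scaling to the library median was an alternative. Python 3.11.15 was used for the rest. The threshold was an adjusted p of 0.05, and both tests were tested on simulated data. Named in full were the called regions, those in or within 1 kb of a gene, and the tallest of each gene. The genes, lists and tests were chosen with earlier results of these data known, and 3 alternatives were added after these values were seen. Pileups of at most 29.0 M fragments per library limit the calling of weak peaks.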

Additional observations from a re-analysis of the deposited data

Results flagged for a closer look

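The heights of 5 libraries at a region stood far from the other 3 of their group by Dixon's criterion, among 54 sets of 4 heights; chance flags about 1 in 20 groups. In IRF5-/- cells at 72 h, replicate 1 had 0.890 fragments per M at the Gata3 region 64.2 kb below the gene, where the next library had 0.606. In IRF5-/- cells at 72 h, replicate 2 had 0.807 at the Gata3 region 53.6 kb below the gene (next library 1.24) and 0.807 at the Nfil3 region 2.94 kb above the gene (next library 1.45). In IRF5+/+ cells at 72 h, replicate 4 had 1.48 at the Maf region 21.6 kb above the gene (next library 2.22) and 1.79 at the Nfil3 region 15.6 kb above the gene (next library 2.55). That library also had the lowest median height of the IRF5+/+ libraries at 72 h, 2.29 against 2.68 to 2.90, and its part in these values was not tested.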

How the results depend on the processing

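The number of regions gained by presence (8) was 7 or 8 under a stricter q value, a minimum of 1 or 4 libraries, a peak over at least 0.5 of the region, equal peak numbers, an unstratified Fisher's exact test and leaving out each library (7 to 8). It was 3 with genes at most 20 kb away and 19 at most 500 kb away. The regions behind these counts were not always the same. By gene, the 8 were 3 for Gata3, 3 for Maf and 2 for Nfil3. The numbers were 1, 4 and 2 with a peak over at least 0.5 of the region, and 1, 6 and 1 with equal peak numbers. In the latter setting the regions 19.4, 35.5 and 63.9 kb above Maf were gained, which were not among the 8. With equal peak numbers 1 region, chr2:9871186-9872210 in Gata3, was lost. With the replicate number as a block 0 were gained, since the smallest p is then 0.0156 and no region of the genome passes. Over 21 pairs of same-numbered libraries the deviations correlated between -0.17 and 0.23, 1 of them over 0.1. Such correlations among so few libraries cannot show whether the numbers pair the libraries, so pairing is unknown. Genotype gave 0 calls by presence in every setting run. For heights per M, 1 higher and 6 lower regions became 2 higher relative to the library median, 0 higher and 2 lower in fold enrichment, 0 higher above the lower quartile of height, which removed the Nfil3 region, and 4 higher with peaks in at least 2 libraries per group. Leaving out each library gave 1 to 1 higher and 5 to 6 lower. Signs turned at chr2:9867009-9867917 (0.11 relative to the median), chr2:9801353-9801982 (-0.23 in fold enrichment and -0.12 without IRF5-/- 0 h replicate 3, the lowest of a range up to 0.30 over the libraries left out) and chr2:9888902-9890203 (0.035 in fold enrichment); the cause was not tested. Without IRF5-/- 0 h replicate 3, the log2 differences were -1.26 at the Gata3 start site, -1.07 at the Maf boundary and -1.23 at the Nfil3 start site. Regions lower in IRF5-/- cells per M (0) numbered 2 without IRF5-/- 0 h replicate 1, 7 without replicate 4, a range of 0 to 7 over the libraries left out (beside 24.6% and 79.1% of all regions without replicates 1 and 4), and 1 with peaks in at least 2 libraries per group. Relative to the median they numbered 0 throughout. The replicate block left the height calls as they were (Gata3 start site -1.04).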

Other observations

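Between 100 and 500 kb from the genes, 31 more regions had Gata3 as their nearest protein-coding gene and 6 had Maf; Nfil3 had 0. Of the 31 Gata3 regions, 10 were gained at 72 h (32.3%), 0 were lost and 11 had a peak in all 15 libraries. Over regions at any distance 18.4% were gained, but that share is no like background. It rose with distance, from 16.6% in or within 1 kb of a gene to 21.8% at 10 to 100 kb. Beyond 100 kb the share of all regions was not computed. All 31 lie below Gata3 in coordinates. The region chr2:9587049-9588170, 269 kb from the gene, had a peak in 8 of 8 libraries at 72 h and 1 of 7 at 0 h, with mean heights of 2.86 and 0.353 fragments per M where present. The region chr2:9616031-9616727, 240.4 kb away, had a peak in 8 libraries at 72 h, at 1.26 on average, and in 0 at 0 h.

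Of the 11 Gata3 regions with a peak in all libraries in this stretch, 10 had a lower and 1 a higher mean height per M at 72 h than at 0 h. Most regions fell on that scale: in limma 65.4% of the 21176 regions with a peak in every library were lower. The median log2 difference over all 21176 was -0.66. The count alone therefore cannot tell a change at these Gata3 regions from that general shift, and heights relative to the library median are not given for them. The mean height at chr2:9593649-9594646, 262 kb away, was 1.22 fragments per M at 72 h and 6.55 at 0 h. At chr2:9519587-9520608, 336 kb away, it was 1.06 at 72 h and 6.25 at 0 h, and at chr2:9681589-9682361, 175 kb away, 1.33 at 72 h and 5.53 at 0 h. At chr2:9577615-9578569, 279 kb away, it was 2.84 at 72 h and 0.809 at 0 h. These are values without a test of height, read after they had been seen, and nearness does not show that a region acts on Gata3. One of the 6 Maf regions was gained, chr8:115529739-115530402, 173 kb below the gene, with a peak in 8 of 8 libraries at 72 h and 2 of 7 at 0 h.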
